A study of Mus musculus with 12 samples.

Results

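Undifferentiated mouse embryonic stem cells of a female line labelled RlimKO were compared with undifferentiated cells of the female wild-type (WT) line Pgk12.1. The comparison used 4 of the 12 RNA-seq libraries of the study: 2 from the RlimKO-labelled line and 2 from Pgk12.1, chosen by their labels alone. Both groups were cultured in ESC medium containing LIF, the cytokine that holds mouse stem cells in self-renewal, and both were labelled as strain C57BL/6. The other libraries came from the same female lines after differentiation (embryoid bodies for 3 days, then 6 days at 7.5% oxygen) and from the male WT line E14 in both states, again 2 per group. Each genotype was 1 cell line, so the RlimKO label and any other difference between the lines cannot be told apart. The labels name neither the deleted part of Rlim nor separate cultures for the replicates. All p-values therefore measure only the spread between these libraries, which may be technical.

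Rlim (also called Rnf12) is an X-linked gene for a nuclear ubiquitin ligase. The ligase marks REX1, a repressor of Xist, for degradation, and it is known as an activator of X chromosome inactivation. Undifferentiated female stem cells carry 2 active X chromosomes. Xist, the noncoding RNA that silences the X chromosome it coats, is low in them until differentiation begins.

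The 4 libraries held 2011919 to 2199418 counts in genes. The ribosomal RNA precursor Rn45s took up 44.1% to 55.8% of these counts, and 836410 to 1170931 counts were left once Rn45s and Lars2 were dropped. Replicates differed from each other by more than counting noise in both lines, with a chi-square per degree of freedom of 2.20 for WT and 1.85 for the RlimKO-labelled pair. All 9 markers of undifferentiated stem cells had counts, at a summed 4064 and 4132 CPM (counts scaled to a common library size) in WT and 3684 and 3664 CPM in the RlimKO-labelled libraries. Markers of fibroblasts or feeder cells stood apart in RlimKO-labelled replicate 2, at a summed 117 CPM over 7 genes against 2.36 CPM in replicate 1 and 11.7 and 19.8 CPM in WT. None of those 7 markers passed the expression filter. Trophoblast markers summed to 0.857 to 4.71 CPM, with Cdx2, Krt7, Tpbpa and Gcm1 at 0 in all 4 libraries, and endoderm markers to 2.12 to 14.6 CPM. In bulk RNA, fewer cells expressing a gene and less of its RNA per cell cannot be told apart.

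Rlim RNA (X chromosome, 103957163 to 103981284, mm10) was present in the libraries labelled RlimKO, at 324 and 302 CPM, against 538 and 557 CPM in WT and 404 and 521 CPM in E14 males. Both RlimKO-labelled libraries lay below every other undifferentiated library. The difference was a log2 fold change of -0.81 ± 0.13 (SE; 1.75-fold lower), with an adjusted p of 0.000125 by edgeR's quasi-likelihood test with Benjamini-Hochberg adjustment, the test behind every adjusted p below. DESeq2 gave an adjusted p of 7.97e-05. After differentiation the RlimKO-labelled libraries stood at 538 and 567 CPM and WT at 498 and 510 CPM, and no difference was called (0.16, adjusted p = 0.263). The change of this line difference with the state passed its own interaction test (adjusted p = 1.95e-05). Counts summed over a gene do not show which exons were read, so the label was not checked at the level of the deletion, and the line is called RlimKO-labelled throughout.

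Xist (X chromosome, 103460366 to 103483254) was higher in the RlimKO-labelled cells. It stood at 292 and 318 CPM there, at 232 and 182 CPM in WT and at 101 and 96.6 CPM in E14. The log2 fold change was 0.57 ± 0.15 (1.48-fold, adjusted p = 0.0235), but DESeq2 did not call it (adjusted p = 0.188), and neither did edgeR when any 1 of the 4 libraries was left out. In differentiated cells the lines stood at 2149 and 2059 CPM (RlimKO-labelled) and 2108 and 2073 CPM (WT), with a difference of 0.04 (adjusted p = 0.839). The undifferentiated and differentiated differences were not called different from each other (interaction adjusted p = 0.0701). Tsix, the antisense repressor of Xist, had 24.8 and 36 CPM in the RlimKO-labelled libraries and 32.8 and 10.4 CPM in WT, which overlap (0.54 ± 0.40, adjusted p = 0.576). The counting could not separate strands, so reads from the overlap of Xist and Tsix are of unknown origin. Ftx, listed as B230206F22Rik, also overlapped between the lines (0.11 ± 0.35, adjusted p = 0.93). In differentiated cells Ftx was called higher, at 84.8 and 58.7 CPM (RlimKO-labelled) against 41.5 and 37.5 CPM in WT (0.82, adjusted p = 0.00478). Its change with state was not called (interaction adjusted p = 0.306). Jpx, listed as Enox, had too few counts to be tested (0.942 to 5.3 CPM).

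Among 21 tested genes of the X inactivation centre and its regulators, 1 was higher (Xist) and 2 were lower, Rlim and Eed, with a median of -0.02. Eed, the subunit of polycomb repressive complex 2 that binds methylated histone H3, stood at 188 and 178 CPM in WT and 92.1 and 108 CPM in the RlimKO-labelled libraries (-0.86 ± 0.18, adjusted p = 0.00323). Of 11 tested substrates and partners of RLIM, 1 was lower, the X-linked deubiquitinase gene Usp26, and the median was -0.23. Usp26 stood at 78.4 and 70.7 CPM in WT and 17.7 and 18 CPM in the RlimKO-labelled libraries (-2.05 ± 0.29, adjusted p = 3.37e-05). Zfp42, which encodes the RLIM substrate REX1, had overlapping RNA levels of 584 and 536 CPM in WT and 580 and 608 CPM in the RlimKO-labelled cells (0.09 ± 0.12, adjusted p = 0.804). Protein was not measured.

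Of 9460 genes tested, 297 (3.14%) were called between the lines at an adjusted p below 0.05. In the RlimKO-labelled cells 183 were higher (1.93% of tested genes) and 114 were lower (1.21%). At an unadjusted p below 0.05 (edgeR) there were 1433 of the 9460 genes. These shares are the background for counts within gene lists. The median size of a called change was 0.80 (log2) among the higher genes and 0.90 among the lower, and 60 higher and 50 lower genes changed at least 2-fold. All called genes had libraries that did not overlap, as did 44.1% of all tested genes. The count was lower in each edgeR fit that left out 1 of the 4 libraries. Such a fit takes its spread from the 1 replicated pair that is left, so the lower count cannot be assigned to a particular library. DESeq2 called 70, and a model of all 12 libraries 32, all among the 297. The model of 12 libraries also takes in the spread of the differentiated E14 pair. The chi-square per degree of freedom of that pair was 24.8, against at most 2.32 in the other groups.

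Largest among the falls was Sp4, a zinc-finger transcription factor of the Sp family at the end of chromosome 12 (118234933 to 118301440). WT libraries held 20 and 21 counts of Sp4 (21.2 and 19.8 CPM), and the RlimKO-labelled libraries held 0 and 1. The ratio was 41.2 with a 95% exact binomial interval of 6.99 to 1670, which covers counting error only (adjusted p = 0.000364). E14 libraries held 20.6 and 31.5 CPM. In differentiated cells Sp4 again had 0 counts in both RlimKO-labelled libraries against 59 in WT, at least 13.6-fold lower with 3 counts over the group as the floor. Of 16 tested Sp and Klf factors, Sp4 was the 1 called, and their median was -0.05.

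Several cell-surface, enzyme and signalling genes fell more than 4-fold. Fam198b, a Golgi membrane protein gene, went from 17 CPM in both WT libraries to 2.36 and 1.71 CPM (-3.01 ± 0.69, adjusted p = 0.00894). Gpc4, an X-linked heparan sulfate proteoglycan, stood at 25.4 and 13.2 CPM in WT and 3.54 and 2.57 CPM in the RlimKO-labelled cells (-2.63 ± 0.63, adjusted p = 0.0142). Cbs, which makes cystathionine from homocysteine, fell by 2.79 ± 0.66 (adjusted p = 0.0114), and Npl, a sialic acid lyase, by 2.58 ± 0.62 (adjusted p = 0.0137). Rcsd1, a regulator of actin capping, fell by 2.31 ± 0.48 (adjusted p = 0.00331), and Srgap3, a GTPase-activating protein gene, by 2.29 ± 0.52 (adjusted p = 0.00938). Egfr, the epidermal growth factor receptor, fell by 2.07 ± 0.58 (adjusted p = 0.0386). All 7 of these genes were expressed at a low level, at most 35 CPM in any undifferentiated library of either line.

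The largest rises were mostly of genes with few counts in WT. Slitrk5, a neuronal transmembrane protein gene, had 0 counts in both WT libraries and 28 in the RlimKO-labelled pair (16.5 and 12 CPM), at least 9.29-fold higher with a floor of 3 counts over the group (adjusted p = 0.00145). Pax8, a paired-box transcription factor, rose from 4.24 and 3.77 CPM to 28.3 and 20.6 CPM (2.56 ± 0.55, adjusted p = 0.0051). Pkd2l1, a cation channel gene, was at 0 and 7.54 CPM in WT and at 16.5 and 28.3 CPM in the RlimKO-labelled libraries (2.49 ± 0.63, adjusted p = 0.0191). H2-D1, a class I major histocompatibility gene with near-identical relatives that counting could split, rose by 2.35 ± 0.64 (adjusted p = 0.0329). Dpysl2, a regulator of axon growth, stood higher, at 98 and 126 CPM against 38.1 and 39.6 CPM in WT (1.54 ± 0.24, adjusted p = 0.000107). The libraries of the lines did not overlap for these 5 genes, as for all 297 called genes and 44.1% of all tested genes.

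**Figure D1:**
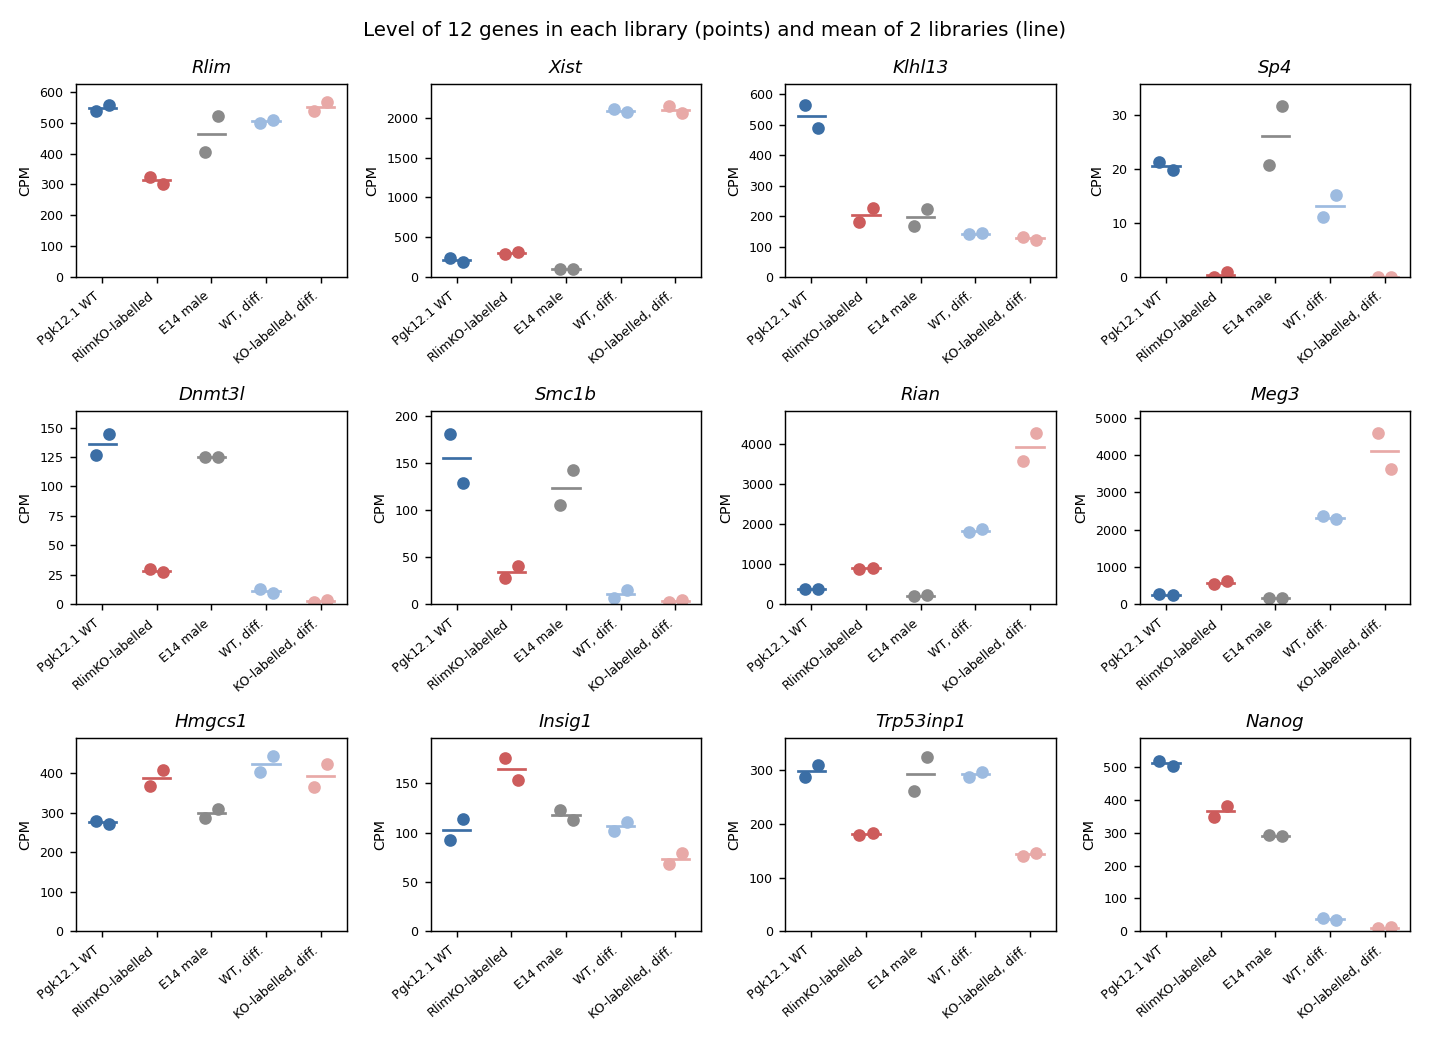
Level of 12 genes, as CPM, in each library (points) with the mean of 2 libraries (line), for undifferentiated Pgk12.1 WT, RlimKO-labelled and E14 male cells and for the differentiated (diff.) female lines. Rlim is lower in the undifferentiated RlimKO-labelled pair (324 and 302 CPM) than in any other group, and Sp4 is at or near 0 in that line in both states.

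The summed picture of the X chromosome was a small shift with calls on both sides. With Xist and Tsix left out, 372 X-linked genes had a median of 0.024 and 9043 autosomal genes a median of -0.005 (log2), which leaves a shift of 0.029. Each of the 4 pairings of 1 RlimKO-labelled with 1 WT library gave a shift between -0.041 and 0.094. Against E14 males the X-linked median was 0.94 in the RlimKO-labelled cells and 0.88 in WT, values that share the E14 libraries. Of 10 tested genes reported to escape X inactivation, 0 were called by edgeR and 0 by DESeq2 (1 at an unadjusted p below 0.05), with a median of -0.06.

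Among X-linked genes 7 were higher and 12 lower. With Xist and Tsix counted, 5.08% of 374 X-linked genes were called, against 3.04% of autosomal genes, and the difference between these shares was not tested. Klhl13, a substrate adaptor of a cullin ubiquitin ligase, stood at 566 and 491 CPM in WT and 179 and 227 CPM in the RlimKO-labelled cells (-1.36 ± 0.14, 2.57-fold lower, adjusted p = 7.79e-08). E14 males, at 169 and 223 CPM, overlapped the RlimKO-labelled libraries. Fhl1, a LIM-domain protein gene, stood at 83.7 and 51.8 CPM in WT and 27.2 and 18 CPM in the RlimKO-labelled cells (-1.60 ± 0.31, adjusted p = 0.00188). These were the 2 calls among 15 X-linked regulators of pluripotency and MAPK signalling, whose median was -0.03.

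Efhc2, an EF-hand domain gene, was at 90.1 and 106 CPM in WT, 16.5 and 27.4 CPM in the RlimKO-labelled cells and 1.42 and 1.68 CPM in E14 (-2.12 ± 0.27, adjusted p = 4.43e-06). Wdr45, an autophagy gene, fell by 1.86 ± 0.37 (adjusted p = 0.00266). The X-linked rises with the largest fold were Hdx, a homeobox gene (2.35 ± 0.56, adjusted p = 0.0135), Nxf3, an RNA export factor gene (1.06 ± 0.22, adjusted p = 0.00423), Zfp280c, a zinc-finger gene (0.84 ± 0.19, adjusted p = 0.00833), and Armcx2, an armadillo-repeat gene (0.78 ± 0.20, adjusted p = 0.0202). Nxf3 went from 57.2 and 48.1 CPM in WT to 115 and 105 CPM. Both Nxf3 and Armcx2 lie in short raised stretches of the X chromosome, found by the rule given with chromosome 10.

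Genes of cholesterol synthesis and uptake stood higher in the RlimKO-labelled cells. Of 22 tested members, edgeR called 7 higher and 0 lower, against 1.93% and 1.21% of all tested genes. DESeq2 called 2 higher and 0 lower, and by edgeR 13 and 0 had an unadjusted p below 0.05. The median was 0.50 against -0.003 over all tested genes, and 21 of 22 values were positive. These genes share the transcription factor SREBP2, which is held in the endoplasmic reticulum by INSIG proteins when sterol is abundant.

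Among the enzymes, Hmgcs1, which makes HMG-CoA, stood at 368 and 409 CPM against 280 and 272 CPM (0.50 ± 0.13, adjusted p = 0.0275). The RlimKO-labelled libraries lay above both WT libraries, and every called gene lacked overlap between the lines. Fdft1, the squalene synthase gene, rose by 0.64 ± 0.18 (adjusted p = 0.0392), and Dhcr7, which carries out the final reduction to cholesterol, by 0.90 ± 0.23 (adjusted p = 0.0237). Insig1, the sterol-sensing anchor of SREBP, rose from 92.2 and 114 CPM to 176 and 153 CPM (0.67 ± 0.18, adjusted p = 0.0349). Srebf2, the gene of SREBP2 itself, had overlapping levels (0.02 ± 0.15, adjusted p = 0.972). Hmgcs1, Fdft1 and Insig1 fall outside the rule for named genes and were chosen after their values were seen. DESeq2 called none of Hmgcs1, Fdft1, Dhcr7 and Insig1 (adjusted p from 0.158 to 0.341).

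In differentiated cells of the same lines, where 8.44% of all tested genes were higher and 9.80% lower, 1 of the 22 genes was higher, 1 lower (Insig1, -0.48, adjusted p = 0.0215), and the median was -0.03. The difference between states passed the interaction test for Insig1 (adjusted p = 0.000811), Hmgcs1 (adjusted p = 0.0442) and Fdft1 (adjusted p = 0.0327). It did not for Dhcr7 (adjusted p = 0.0564).

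Promoters of 14 of the 22 genes were in the RefSeq table used (GRCm38.p6, 250 bases before to 50 after the annotated start). These 14 genes had 16 promoter windows. The classical sterol response element letters TCACNCCAC, searched on both strands, matched 1 of the 16, that of Hmgcs1, and 1.24% of 32851 windows genome-wide. CCAAT, the letters bound by the SREBP partner NF-Y, matched 14 of the 16, at least 1 per gene, and 37.41% of windows genome-wide. The GC box GGGCGG, bound by Sp factors, matched 15 of the 16, at least 1 per gene, and 35.66% genome-wide. CACGTG, an E-box, matched 4 of the 16 and 7.15% genome-wide. To show how 2 of the called genes differ in these letters, the 250 bases before the start are printed 5′ to 3′ in the direction of transcription, with the sterol response element and CCAAT matches of either strand in capitals (ATTGG is CCAAT on the other strand). Hmgcs1 lies on the plus strand at chr13:119690101-119690350 and holds the sterol element TCACCCCAC starting at -137 from the start site, with 3 CCAAT matches around it. Insig1 lies on the plus strand at chr5:28071162-28071411 and holds 1 CCAAT match and no match to the sterol element letters in this window. A match is a description of the letters, not of binding.
Hmgcs1: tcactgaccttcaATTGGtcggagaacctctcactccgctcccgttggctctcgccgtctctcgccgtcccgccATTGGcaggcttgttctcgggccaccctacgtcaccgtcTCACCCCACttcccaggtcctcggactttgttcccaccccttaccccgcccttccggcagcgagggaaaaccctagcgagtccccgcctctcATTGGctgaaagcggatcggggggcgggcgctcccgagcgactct
Insig1: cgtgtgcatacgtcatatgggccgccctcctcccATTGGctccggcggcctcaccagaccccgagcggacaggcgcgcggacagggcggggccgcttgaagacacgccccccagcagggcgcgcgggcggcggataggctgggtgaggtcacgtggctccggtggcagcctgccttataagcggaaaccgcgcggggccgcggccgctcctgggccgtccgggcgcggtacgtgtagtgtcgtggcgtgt

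The p53 pathway list leaned lower. Its 25 tested members comprise p53 (Trp53) and genes it is known to induce after DNA damage. Of these, 0 were higher and 5 lower (1.21% lower over all tested genes), with a median of -0.39 and 22 negative values. Trp53inp1, a stress-induced nuclear and autophagy protein gene, stood at 287 and 309 CPM in WT and 179 and 183 CPM in the RlimKO-labelled cells (-0.71 ± 0.14, adjusted p = 0.00288). Sesn2, a sestrin that restrains mTORC1, went from 98.5 and 98 CPM to 60.2 and 39.4 CPM (-1.01 ± 0.24, adjusted p = 0.0125). Neither gene overlapped between the lines, which held for every called gene. Ckap2, a spindle protein gene, fell by 0.61 ± 0.15 (adjusted p = 0.0154), Eda2r, an X-linked death-domain receptor, by 0.57 ± 0.14 (adjusted p = 0.0164), and Ccng1, cyclin G1, by 0.57 ± 0.14 (adjusted p = 0.0179; named to complete the 5). Trp53 itself was at -0.10 ± 0.14 (adjusted p = 0.813), Mdm2, its ubiquitin ligase, at 0.14 ± 0.19 (adjusted p = 0.804), and Cdkn1a, the p21 cell-cycle inhibitor, at 0.03 ± 0.31 (adjusted p = 0.979). DESeq2 called 1 of the 25 lower. In differentiated cells, where 9.80% of all tested genes were lower, 19 of 27 members were lower and 0 higher, with a median of -0.62.

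Of 24 naive pluripotency genes 1 was higher and 2 were lower (1.93% and 1.21% over all tested genes), with a median of -0.27 and 20 negative values. At an unadjusted p below 0.05, 11 of the 24 were lower. Over all 9460 tested genes, 1433 passed that threshold in either direction. Nanog, a homeodomain factor of the core network, stood at 519 and 504 CPM in WT, 348 and 381 CPM in the RlimKO-labelled cells and 292 and 290 CPM in E14 (-0.48 ± 0.12, 1.39-fold lower, adjusted p = 0.0237; DESeq2 adjusted p = 0.0904). Dppa3, a maternal factor that protects DNA methylation marks, was low in both lines, at 18 and 21.7 CPM against 2.36 and 6 CPM (-2.14 ± 0.57, adjusted p = 0.0273). Tcl1, a coactivator of the kinase AKT, was higher, at 327 and 311 CPM against 183 and 217 CPM in WT (0.67 ± 0.14, adjusted p = 0.00512), and lies in the raised stretch at the end of chromosome 12. Tbx3, a T-box factor, was at -0.64 ± 0.22 (adjusted p = 0.111). In differentiated cells, where 9.80% of all tested genes were lower, 14 of 20 naive genes were lower and 0 higher, with a median of -1.0.

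Of 16 core and general pluripotency genes, 0 were called by edgeR or DESeq2 (1 positive and 3 negative at an unadjusted p below 0.05), with a median of -0.17. Sox2 was at -0.29 ± 0.14 (adjusted p = 0.296) and L1td1, an RNA-binding protein gene, at -0.30 ± 0.11 (adjusted p = 0.163). Pou5f1, which encodes OCT4, overlapped between the lines, at 700 and 842 CPM in WT and 753 and 699 CPM in the RlimKO-labelled cells. Of 12 formative and primed genes 0 were called by edgeR or DESeq2 (2 at an unadjusted p below 0.05), with Lefty1, a Nodal inhibitor, at 0.57 ± 0.17 (adjusted p = 0.0561). Nodal and BMP genes (0 of 10), LIF and STAT3 response genes (0 of 15) and WNT targets (0 of 8) had no call by edgeR or DESeq2, with 5, 2 and 1 members at an unadjusted p below 0.05. Dusp6, the ERK phosphatase, was the 1 call among 15 ERK feedback genes (1.59 ± 0.30, adjusted p = 0.00142), and it lies in the raised stretch of chromosome 10.

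Genes of the 2-cell-like state, a rare state of stem cells that expresses early embryonic genes, were mostly too low to test (7 of 32 measured genes tested). Usp17l5, a deubiquitinase gene, had 30 counts in the RlimKO-labelled pair and 2 in WT, a ratio of 14.9 with a 95% interval of 3.79 to 129 (adjusted p = 0.00538). Zscan4c, a telomere-acting zinc-finger gene, was at 13 and 11.1 CPM against 0 and 3.77 CPM (2.52 ± 0.79, adjusted p = 0.0773), and Dub1a, a relative of Usp17l5, was at 2.30 ± 0.68 (adjusted p = 0.0526). The list median was 1.89 over genes that passed the filter largely through their RlimKO-labelled counts. These genes have near-identical copies between which reads could be split.

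Germline and meiosis genes included 4 falls and 0 rises among 21 tested (1.21% lower over all tested genes), with a median of -0.25. Smc1b, the meiotic subunit of cohesin, stood at 181 and 129 CPM in WT, 27.2 and 40.3 CPM in the RlimKO-labelled cells and 105 and 142 CPM in E14 (-2.16 ± 0.24, 4.47-fold lower, adjusted p = 2.91e-07). Hormad1, a meiotic chromosome axis gene, went from 123 and 99.9 CPM to 48.4 and 52.3 CPM (-1.13 ± 0.22, adjusted p = 0.00233). The RlimKO-labelled libraries lay below both WT libraries for either gene, as for every gene called lower. Tdrd12 and Rnf17, Tudor-domain genes of the piRNA pathway, fell by 1.52 ± 0.31 (adjusted p = 0.00326) and 1.09 ± 0.20 (adjusted p = 0.00109).

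The DNA methylation machinery had 1 fall and 1 rise among 18 tested genes (1.21% and 1.93% over all tested genes), with a median of -0.12. Dnmt3l, the catalytically inactive cofactor of the de novo methyltransferases, stood at 127 and 145 CPM in WT and 29.5 and 27.4 CPM in the RlimKO-labelled cells (-2.26 ± 0.24, 4.79-fold lower, adjusted p = 1.36e-07; DESeq2 adjusted p = 1.84e-07). E14 cells, at 125 CPM in both libraries, lay just under WT. In differentiated cells Dnmt3l was low in both lines and again lower in the RlimKO-labelled one (-1.98, adjusted p = 0.00589). Mbd3, a subunit of the NuRD chromatin remodelling complex, rose by 1.03 ± 0.25 (adjusted p = 0.0139). Mbd3 lies within the raised stretch of chromosome 10, and Dnmt3l (78041947 to 78063622) just before its start.

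The list of maternally expressed imprinted genes, which counted Xist, had 6 rises and 0 falls among 14 tested. Its median was 0.29, and 1.93% of all tested genes were higher. Rian, Meg3 and Mirg are noncoding RNAs transcribed from the maternal copy of the imprinted Dlk1-Dio3 domain of chromosome 12. Rian stood at 873 and 911 CPM against 373 and 376 CPM in WT and 195 and 233 CPM in E14 (1.25 ± 0.12, 2.38-fold, adjusted p = 2.03e-08). Meg3 stood at 542 and 611 CPM against 279 and 235 CPM in WT (1.17 ± 0.13, adjusted p = 3.38e-07), and Mirg rose by 1.62 ± 0.37 (adjusted p = 0.01). Rtl1, the retrotransposon-derived gene expressed from the paternal copy of the same domain, rose from 11.7 and 8.48 CPM to 35.4 and 36 CPM (1.83 ± 0.40, adjusted p = 0.0067). A maternal antisense transcript overlaps Rtl1, and its reads could not be separated. Rtl1 was the 1 call among 14 paternally expressed genes, whose median was 0.04. In differentiated cells all 4 domain genes were again higher, Rian by 1.12 (adjusted p = 1.32e-07), Meg3 by 0.85 (adjusted p = 1.77e-05), Mirg by 1.26 (adjusted p = 4.34e-07) and Rtl1 by 1.02 (adjusted p = 5.82e-06).

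Gnas, the stimulatory G-protein subunit gene of chromosome 2, stood at 312 and 346 CPM against 195 and 134 CPM in WT (1.01 ± 0.16, adjusted p = 0.00011). Its locus makes overlapping transcripts of opposite parental origin, which gene counts do not separate. The other calls in the list were Xist and Dhcr7, both described above. Xist was counted there although it is not a maternally expressed imprinted gene. Of the 6 rises in the list, 3 lay outside the raised stretches. H19, a maternally expressed noncoding RNA, was at -1.02 ± 0.45 (adjusted p = 0.263).

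Of 24 hypoxia response genes 3 were higher and 1 lower, with a median of 0.12. Of 18 glycolytic genes 2 were higher, with a median of 0.19 and 15 positive values. Over all tested genes 1.93% were higher and 1.21% lower. Slc2a1, the glucose transporter GLUT1, was in both lists and stood at 537 and 527 CPM against 344 and 317 CPM in WT (0.69 ± 0.13, adjusted p = 0.00101). Ldha, lactate dehydrogenase A, also in both, rose from 560 and 609 CPM to 777 and 845 CPM (0.48 ± 0.12, adjusted p = 0.0154). For both genes the lines did not overlap, as for every called gene. Egln3, an oxygen-sensing prolyl hydroxylase, rose by 1.57 ± 0.36 (adjusted p = 0.0103), and Kdm3a, a hypoxia-induced histone demethylase, fell by 0.62 ± 0.16 (adjusted p = 0.0237). After differentiation Slc2a1 was again higher (0.84, adjusted p = 3.88e-06), whereas Ldha and Egln3 were lower (-0.50, adjusted p = 0.00353, and -0.84, adjusted p = 0.0008).

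Cell-cycle genes held 1 rise and 3 falls among 23 tested (1.93% and 1.21% over all tested genes), with a median of 0.02. Rb1, the retinoblastoma protein that restrains entry into S phase, went from 61.5 and 33 CPM to 13 and 13.7 CPM (-1.79 ± 0.37, adjusted p = 0.00383). The cyclin genes Ccnd3 and Ccnb1 fell by 0.68 ± 0.19 (adjusted p = 0.0333) and 0.48 ± 0.14 (adjusted p = 0.0477). Cdk4, the kinase partner of D cyclins on distal chromosome 10, rose by 0.53 ± 0.13 (adjusted p = 0.0199). Of 26 polycomb subunits 3 were lower and 0 higher: Eed, Mtf2, the PRC2 accessory factor that binds CpG islands (-0.51 ± 0.13, adjusted p = 0.0191), and E130012A19Rik (-0.67 ± 0.19, adjusted p = 0.0386). The median of the 26 was -0.04, and 1.21% of all tested genes were lower. DESeq2 called 0 of the polycomb genes and 0 of the cell-cycle genes, with an adjusted p of 0.0529 for Eed, 0.0784 for Mtf2, 0.109 for Cdk4, 0.29 for Ccnb1 and 0.32 for Ccnd3, and gave none for Rb1. With all 12 libraries in the model 1 polycomb gene and 0 cell-cycle genes were called.

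Neuronal and axon growth genes held 2 rises and 2 falls among 21 tested (1.93% and 1.21% over all tested genes), with a median of -0.26. Sox11, a neural progenitor factor, rose with Dpysl2 (1.57 ± 0.38, adjusted p = 0.0135), while Ncam1, a neural adhesion molecule, fell by 0.85 ± 0.21 (adjusted p = 0.0152) and Dpysl3, a relative of Dpysl2, by 1.32 ± 0.37 (adjusted p = 0.0407). Tfap2c, a trophoblast and germ cell factor, fell from 37.1 and 43.3 CPM to 15.4 and 13.7 CPM (-1.47 ± 0.36, adjusted p = 0.0157) and was the 1 call among 3 tested trophoblast genes. Hsph1, a heat shock protein gene, was the 1 call among 9 stress genes (0.69 ± 0.14, adjusted p = 0.00323), and it lies in a raised stretch. Of 19 integrated stress response and amino acid genes, Shmt2, a serine hydroxymethyltransferase on distal chromosome 10, rose by 0.56 ± 0.14 (adjusted p = 0.0157) and Sesn2 fell. DESeq2 called neither Shmt2 (adjusted p = 0.108) nor Sesn2 (adjusted p = 0.208). It gave no adjusted p for many low genes, Sp4, Usp17l5, Rtl1 and Tfap2c among them. Of 69 named genes called by edgeR, DESeq2 gave an adjusted p for 42 and called 20. Rps15, on distal chromosome 10, was the 1 call among 40 ribosomal protein genes (0.54 ± 0.11, adjusted p = 0.00358), whose median was -0.06. Of 7 tested endoderm genes 0 were called by edgeR or DESeq2 (4 lower at an unadjusted p below 0.05). All 7 were negative, with a median of -0.66. Col4a2, a basement membrane collagen gene, was at -1.84 ± 0.54 (adjusted p = 0.0538). With no low-count filter 19 endoderm genes were tested, with a median of -0.04 and 1 called lower by edgeR. In differentiated cells 11 of 18 were lower and 1 higher, against 9.80% and 8.44% of all tested genes. Fibroblast (0 of 4) and blood genes (0 of 3), with no call by edgeR or DESeq2, had 1 member each at an unadjusted p below 0.05, and the 8 measured Y-linked genes were too low to test.

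**Figure D2:**
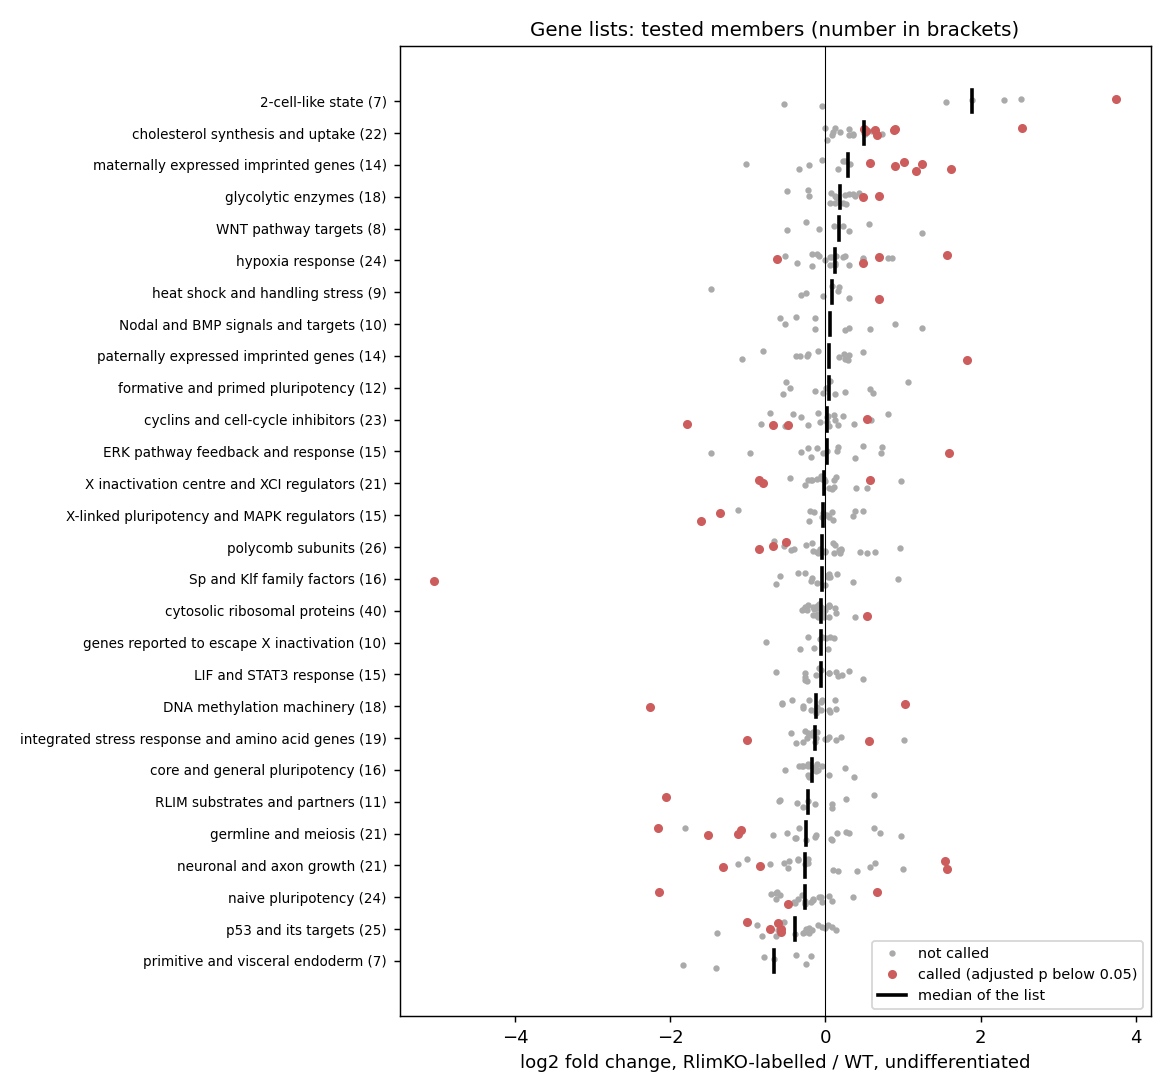
Log2 fold change (RlimKO-labelled over WT, undifferentiated) of each tested member of the lists with at least 7 tested genes, with the number tested in brackets, red points for called genes and a bar for the list median. Cholesterol genes have 7 calls and a median of 0.50, and p53 genes 5 calls and a median of -0.39.

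Calls were counted along each chromosome. Chromosome 10 held 69 of the 183 higher genes among 460 tested, chromosome 12 held 25 among 350 and chromosome 5 held 23 among 624, while each of the other autosomes held 0 to 7. The rule used next, runs of at least 10 overlapping windows of 25 neighbouring tested genes whose median log2 fold change was 0.3 or more in size, was chosen after these values were seen. It joined 249 tested genes from Cdc34 to Bloc1s1 (chromosome 10, 79682195 to 128924035), a stretch that runs to the final tested gene of the chromosome. Their median was 0.59 (1.5-fold), with quartiles of 0.36 and 0.79, and 229 of 249 (92.0%) were positive. In this stretch 68 genes were higher (27.3%, against 1.93% of all tested genes) and 0 lower. The rule selects on these same fold changes, so the median and these shares are a description and not a test. The median stayed between 0.55 and 0.61 when any of the 4 libraries was left out, but the number of calls did not: it was 0 without either WT library, 33 without RlimKO-labelled replicate 1 and 44 without replicate 2. DESeq2 called 20 of these genes and the model of all 12 libraries 4.

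The 211 tested genes of chromosome 10 before this stretch had a median of -0.02, with 1 higher and 5 lower. The stretch made up 2.80% and 2.84% of the counts in WT, 4.22% and 4.13% in the RlimKO-labelled libraries and 3.15% and 3.04% in E14. Both RlimKO-labelled libraries were therefore above the other lines, which lay close together. Against E14 the median over the stretch was 0.47 for the RlimKO-labelled cells and -0.09 for WT, values that share the E14 libraries. In differentiated cells the same genes were higher in the RlimKO-labelled line by a median of 0.55. Of 244 tested in that state, 128 were higher and 9 lower, against 8.44% and 9.80% of all tested genes. The stretch made up 3.94% and 3.90% of counts in the differentiated RlimKO-labelled libraries, against 2.74% and 2.68% in WT. The interaction with state was called for 12 of the 249 genes of the stretch, and for 4.65% of all genes tested for it.

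Smaller rises covered parts of chromosomes 12 and 5. From Itpk1 to Sp4 at the end of chromosome 12 (102568582 to 118301440), 75 genes had a median of 0.38, with 12 higher, among them Rian, Meg3, Mirg, Rtl1, Tcl1 and Scarna13, a small Cajal body-specific RNA gene (1.63 ± 0.40, adjusted p = 0.0144), and 1 lower, Sp4. In differentiated cells the median there was -0.03, with 10 higher and 8 lower of 73 genes (8.44% and 9.80% of all tested genes). From Mlh3 to Tdp1 on the same chromosome (85234520 to 99955219), 41 genes had a median of 0.41 with 6 higher, and 0.19 after differentiation. On chromosome 5, 6 stretches between Hps4 and Rfc3 had medians of 0.36 to 0.53, and -0.05 to 0.25 after differentiation. The same rule found 1 lowered stretch, 12 genes from Ppp2r1a to Gm4944 on chromosome 17, with a median of -0.38, 4 positive values and 1 gene called lower. All raised stretches together held 564 tested genes (6.0%) and 101 of the 183 higher genes (55.2%). The rule favours such a share, because it picks stretches by these same fold changes. Outside them 82 of 8896 genes were higher (0.92%) and 112 lower. The 7 cholesterol rises and 5 p53 falls all lay outside. What raised these stretches was not tested.

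**Figure D3:**
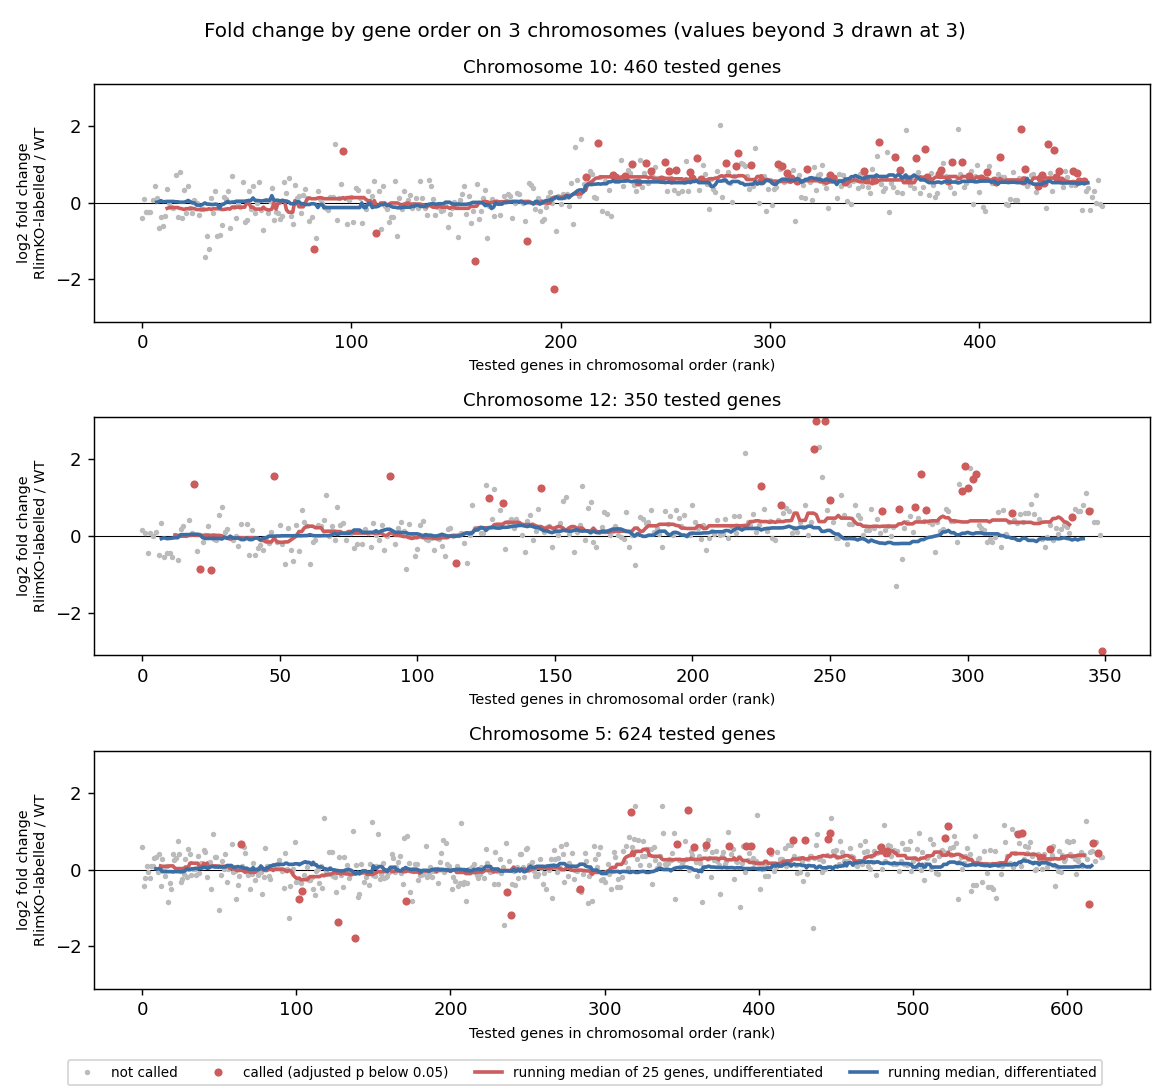
Log2 fold change (RlimKO-labelled over WT) of each tested gene in chromosomal order on chromosomes 10, 12 and 5, with called genes in red and running medians over 25 genes for undifferentiated (red) and differentiated (blue) cells. On chromosome 10 both medians rise together in the distal stretch, where they are 0.59 and 0.55, whereas over the final stretch of chromosome 12, from Itpk1 to Sp4, they are 0.38 and -0.03.

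The differentiated libraries, which share no sample with the undifferentiated ones, gave 2107 calls among 11552 genes (18.2%) between the lines. Of the 297 genes called in undifferentiated cells, 276 were tested there and 196 (71.0%) had the same sign, against 53.5% of 9037 genes tested in both states. The 100 genes called in both in the same direction were 33.7% of the undifferentiated and 4.7% of the differentiated calls, and 23 were called in opposite directions. In the distal chromosome 10 stretch 46 of 67 were called the same way in both states, and elsewhere 54 of 209. The interaction test, which asks whether the line difference itself differed between states, called 522 of 11222 genes (4.65%), among them 89 of the 297. The 297 were picked in libraries that also enter this test, which favours such a share.

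Genes with a line difference in both states and no called interaction included Sp4, Rian, Meg3, Dnmt3l, Trp53inp1 and Fam198b (interaction adjusted p from 0.358 to 0.879). Fam198b was at -2.04 in differentiated cells (adjusted p = 6.8e-05) and Trp53inp1 at -1.0 (adjusted p = 1.1e-06). In contrast, Klhl13 differed by -0.15 (adjusted p = 0.435) after differentiation, when it stood at 140 and 144 CPM in WT and 132 and 121 CPM in the RlimKO-labelled cells, and its interaction was called (adjusted p = 5.44e-06). Gnas likewise went from 1.01 to -0.20 (interaction adjusted p = 1.96e-06).

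**Figure D4:**
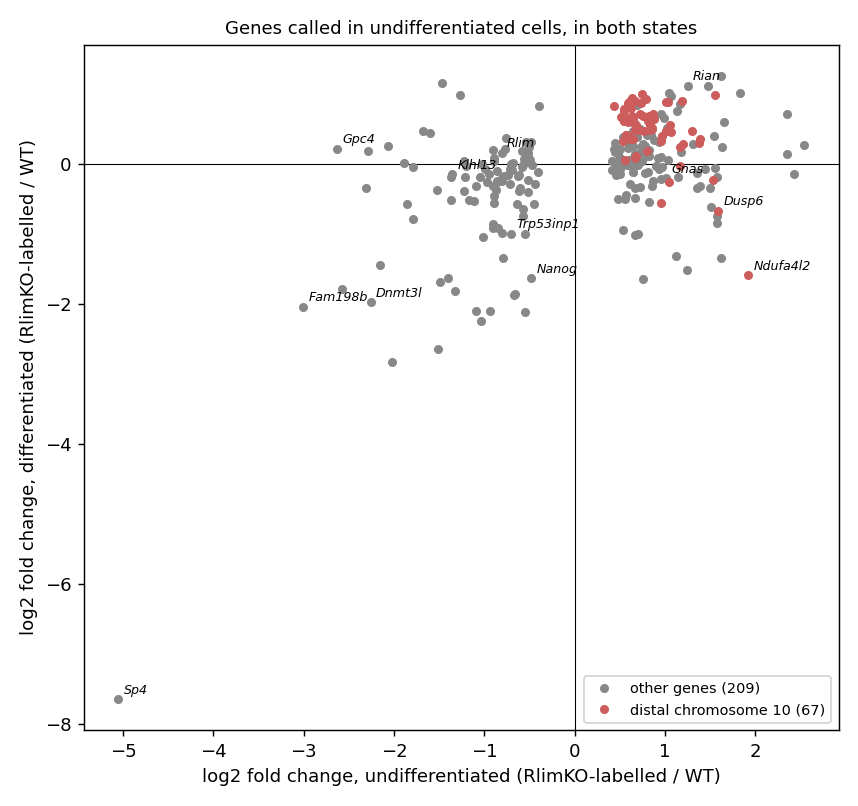
Log2 fold change (RlimKO-labelled over WT) in undifferentiated (x axis) and differentiated cells (y axis) of the 276 genes called in undifferentiated cells and tested in both, with genes of the distal chromosome 10 stretch in red (67). Most red points lie above 0 on both axes, with Dusp6 and Ndufa4l2 among the exceptions, while of 107 other rises 61 kept a positive sign after differentiation and 21 were again called higher.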

How the data were processed

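RNA was read from 12 libraries of mouse embryonic stem cells, and the 4 undifferentiated female libraries were modelled for this comparison. The authors deposited whole-number counts per gene. Per the submitters' processing notes, bcl2fastq 2.16.0.10, TopHat2 2.0.12, HTSeq 0.6.1p1, edgeR 3.10.0 and the mm10 genome were used; the annotation and the strand setting are not given in the sources used here. The template-switching library described in the labels' protocols does not mark strand and no molecular identifiers are described, so Xist and Tsix reads cannot be separated. Reads in no gene feature (47.8% to 50.2%), Rn45s and Lars2 were left out of library sizes and tests.

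Counts were filtered with filterByExpr (minimum count 10), scaled by TMM and tested with edgeR 4.0.16 (glmQLFit and glmQLFTest) in R 4.3.3, with Benjamini-Hochberg adjustment over all tested genes at 0.05. Standard errors were derived from the log2 fold change and the F statistic. CPM values were scaled by TMM over 12 libraries. DESeq2 1.42.0 was an alternative, besides other scalings, filters, a log2 fold change threshold of 1, all 12 libraries in 1 model, a replicate block and leaving out each library. Floors of 3 counts over the group and 95% exact intervals cover counting error only. Gene positions were found for 23118 of 23336 symbols (99.1%). The code was tested on simulated data.

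Named genes were Rlim, Xist, Tsix, Jpx and Ftx, the 12 largest rises and 12 largest falls among called genes with at least 10 CPM and no overlap between lines, up to 4 X-linked genes each way, and the up to 4 members of each list with the smallest p. Predicted genes were left out. Members and lists were chosen with earlier results of these data known, and further names are said to lie outside the rule. Results for some genes are not reported here.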

Additional observations from a re-analysis of the deposited data

Results flagged for a closer look

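The interaction test (edgeR, quasi-likelihood, Benjamini-Hochberg adjustment over 11222 genes) asks whether the line difference itself differed between undifferentiated and differentiated cells. It called 24 of the 66 named genes that were called in undifferentiated cells and are reported here. Over all genes tested it called 4.65%, and 89 of the 297 called in undifferentiated cells. The named genes and the 297 were picked in libraries that also enter this test, which favours such a share. Among X-linked genes the interaction adjusted p was 1.95e-05 for Rlim, 5.44e-06 for Klhl13, 3.18e-06 for Fhl1, 0.000655 for Gpc4, 0.0404 for Efhc2 and 0.00933 for Armcx2. Among transcription and chromatin factors it was 0.00845 for Nanog, 1.96e-06 for Sox11, 0.000322 for Tfap2c, 0.0479 for Eed and 0.0337 for Mtf2. Among signalling and cell-cycle genes it was 4.12e-06 for Dusp6, 0.0025 for Egfr, 0.000288 for Tcl1, 1.96e-06 for Gnas, 0.0399 for Ccnd3, 0.00684 for Ccnb1 and 0.000875 for Srgap3. Among metabolic genes it was 1.96e-05 for Ndufa4l2, 6.03e-06 for Egln3 and 3.32e-05 for Ldha. The remaining values were 0.000537 for Slitrk5, 0.00772 for Rcsd1 and 0.000851 for Dpysl2. Of these genes 8 were called in the opposite direction after differentiation: Fhl1, Sox11, Tfap2c, Dusp6, Tcl1, Ndufa4l2, Egln3 and Ldha. Nanog was lower in both states (-0.48, then -1.63 with adjusted p = 0.000142). Dpysl2 was higher in both (1.54, then 0.40 with adjusted p = 0.00659). Slitrk5 and Efhc2 were too low to be tested in differentiated cells alone.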

How the results depend on the processing

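The 297 calls in undifferentiated cells stayed between 295 and 316 under other scalings, other low-count filters and with Rn45s and Lars2 kept. They fell to 70 with DESeq2, 32 with all 12 libraries in 1 model, 110 with a log2 threshold of 1 added and 0 to 149 when 1 library was left out. With replicate number as a block 114 were called (72 higher, 42 lower), although same-numbered libraries did not deviate together (correlation -0.022). The 2107 calls in differentiated cells became 731 with DESeq2, 363 with all 12 libraries, 828 with that threshold and 1261 to 2070 with 1 library left out; the block gave 2374. The 522 interaction calls became 168 with DESeq2, 29 with all 12 libraries and 213 to 493 with 1 library left out; the block gave 545. The highest window median was 0.951 over 15 genes against 0.698 over 25. The shift of X-linked genes ran from -0.022 to 0.049 with 1 library left out. Of 69 named calls, 40 were kept with the block, 19 with all 12 libraries, and 0, 0, 41 and 34 without each library in turn (WT 1, WT 2, RlimKO-labelled 1 and 2). DESeq2 gave an adjusted p for 42 of the 69 and called 20. Depth limits the low genes: 836410 to 1170931 usable counts per library left many listed genes untested.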

Other observations

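Genes of fatty acid synthesis, looked at after their values were seen, included further rises in the undifferentiated RlimKO-labelled cells. Of 9 such genes, 5 were called higher by edgeR, against 1.93% of all tested genes. Scd2, a stearoyl-CoA desaturase that makes monounsaturated fatty acids, stood at 1849 and 1917 CPM against 919 and 1037 CPM in WT (0.95 ± 0.11, adjusted p = 5.54e-07). Its relative Scd1 stood at 423 and 449 CPM against 224 and 235 CPM (0.93 ± 0.13, adjusted p = 3.37e-05). The lines did not overlap for either gene, as for every called gene. Fasn, the fatty acid synthase gene, rose by 0.49 ± 0.11 (adjusted p = 0.01), Acly, ATP citrate lyase, by 0.41 ± 0.12 (adjusted p = 0.0486) and Tecr, an enoyl-CoA reductase, by 0.67 ± 0.17 (adjusted p = 0.0208). The 4 genes not called, Elovl6, Acaca, Me1 and Srebf1, had values of 0.11 to 0.46. In differentiated cells 0 of the 5 were called by edgeR, and the interaction with state was called for Scd1 (adjusted p = 6.76e-05) and Scd2 (adjusted p = 1.42e-07).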
